A study of Mus musculus with 8 samples.

Results

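Oxidative phosphorylation genes code for the protein complexes of the inner mitochondrial membrane that turn the energy of nutrients into ATP. Members were taken by gene name, as every name on the array that starts with Ndufa, Ndufb, Ndufc, Ndufs or Ndufv and a number, with Uqcr, with Cox4 to Cox8 or with Atp5, together with Sdha, Sdhb, Sdhc and Sdhd. This gave 80 of the 27962 gene names on the array, read by 108 probes. Of these 80 members 35 belong to complex I, 4 to complex II, 7 to complex III, 18 to complex IV and 16 to complex V, as their names place them. The rule used no measured value. The names of 77 members could be tested among 17580 genes, of which 34, 4, 7, 16 and 16 lie in complexes I to V.

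The RNA came from testes of male mice of a C57BL/6 129SV mixed strain at postnatal day 14, labelled as juvenile germ cells with the fusion Dazl-GFP-V5. Dazl is a protein that binds mRNAs in germ cells. Lysates were immunoprecipitated without UV crosslinking, and their RNA was extracted with TRIZOL, labelled with Cy3 and read on one-colour Agilent arrays. The 4 groups of 2 arrays were a precipitate with an anti-V5 antibody (V5), one with an anti-GFP antibody (GFP), a mock precipitate with normal mouse IgG (IgG) and the input, total RNA with no antibody. All 4 groups carry the fusion, and no group without it was analysed here. The promoter that drives the fusion is not given in the sources used here.

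Where the sample labels give GFP as the antibody's target, the text on the whole series gives PABP1, and the sample labels were used. For input replicate 2 and V5 replicate 1 the description field goes against the title, which was followed here. V5 and GFP arrays shared one slide, IgG and input arrays another, so a difference between slides cannot be told apart from a difference of V5 or GFP against IgG or input. The comparisons of IgG with input and of V5 with GFP each stay on 1 slide. Nothing in the labels says that replicates came from separate animals, so p-values here reflect how far 2 arrays of a group differ, and that may be technical error alone. Between 57.2% and 62.2% of the 43379 non-control spots of an array lay well above background. In limma, the transcript of Dazl itself was higher with V5 than with IgG (0.98 ± 0.15, adjusted p = 0.00404) and with GFP than with IgG (1.49 ± 0.15, adjusted p = 0.000369). Against input it was lower, by -1.09 ± 0.15 with V5 (adjusted p = 0.000682), -0.58 ± 0.15 with GFP (adjusted p = 0.0112) and -2.08 ± 0.15 with IgG (adjusted p = 3.61e-05). The V5 call against IgG ended with another background correction, normexp (0.86, adjusted p = 0.176). It also ended without both arrays whose descriptions conflict (0.91).

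Complexes I, III and IV pass electrons along the respiratory chain to oxygen and pump protons, complex II feeds in electrons from succinate, and complex V, the ATP synthase, uses the proton gradient to make ATP. Complex II is also an enzyme of the tricarboxylic acid cycle. Most subunits are encoded in the nucleus and made in the cytosol, while a core set is encoded by mitochondrial DNA. None of the 26 listed names of mitochondrially encoded subunits was found among the array's gene names. In the testis, isoforms of a few subunits and of cytochrome c are made in germ cells. Of the names that the rule takes, Cox4nb (now Emc8) and Atp5s (now Dmac2l) are not subunits of these complexes, and Cox7a2l, a relative of Cox7a subunits, is a factor of respiratory supercomplexes. Ndufa4, placed here with complex I by its name, is now counted with complex IV.

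A level is the processed signal of a probe as a multiple of the 75th percentile of its own array, and levels of different genes were not compared. A difference is that of mean log2 levels of groups of 2 arrays, given ± SE from limma, with p-values adjusted by the Benjamini-Hochberg method over all 17580 genes and called at 0.05. An antibody group is called higher or lower relative to IgG or input on this scale, which fixes the 75th percentile of each array. Fewer cells of a type and less RNA per cell cannot be told apart in such bulk samples.

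Promoter sequence, which the name rule did not use, was searched for known motifs. RefSeq windows of the 250 bases before a gene start were at hand for 65 members (70 windows, assembly GRCm38.p6) and were searched on both strands for 3 motifs of factors known to drive nuclear genes of mitochondrial proteins. The motif of NRF1, GCGCA and GCGC with any 1 base between them, lay in 20.0% of the members' windows against 3.74% of all 32851 windows. CCGGAAG, the motif of GABPA, lay in 17.1% against 6.91%, and AAGATGGCG, the motif of YY1, in 1.43% against 0.606%. At least 1 of the 3 lay in 32.9% of the members' windows and in 10.5% of all windows. Shown are 3 windows of members that the results below turn on, with the NRF1 and GABPA matches of either strand in capitals, and that of Cox6a1, which holds both. The window of Sdha lies at chr13:74350241-74350490 on the minus strand, that of Sdhd at chr9:50603850-50604099 on the minus strand, that of Ndufc2 at chr7:97399753-97400002 on the plus strand and that of Cox6a1 at chr5:115348959-115349208 on the minus strand.
Sdha: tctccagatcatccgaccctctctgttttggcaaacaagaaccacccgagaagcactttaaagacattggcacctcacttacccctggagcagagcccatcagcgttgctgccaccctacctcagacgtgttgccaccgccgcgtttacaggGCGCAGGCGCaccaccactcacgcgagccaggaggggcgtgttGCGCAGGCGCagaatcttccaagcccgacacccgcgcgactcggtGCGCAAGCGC
Sdhd: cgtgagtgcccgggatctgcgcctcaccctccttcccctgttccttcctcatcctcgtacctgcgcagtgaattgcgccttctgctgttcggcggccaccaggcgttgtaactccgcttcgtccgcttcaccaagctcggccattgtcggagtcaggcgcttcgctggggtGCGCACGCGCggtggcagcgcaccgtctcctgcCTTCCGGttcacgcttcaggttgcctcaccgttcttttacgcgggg
Ndufc2: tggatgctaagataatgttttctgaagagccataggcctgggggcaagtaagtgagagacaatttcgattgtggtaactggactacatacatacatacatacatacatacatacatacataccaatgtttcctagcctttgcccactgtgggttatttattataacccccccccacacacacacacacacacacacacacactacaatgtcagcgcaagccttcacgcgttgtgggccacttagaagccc
Cox6a1: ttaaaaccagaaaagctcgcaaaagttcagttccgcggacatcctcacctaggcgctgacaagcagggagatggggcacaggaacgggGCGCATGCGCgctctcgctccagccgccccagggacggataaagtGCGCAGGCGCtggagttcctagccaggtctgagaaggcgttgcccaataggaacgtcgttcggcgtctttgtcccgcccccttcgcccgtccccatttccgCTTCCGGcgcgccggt
Sdha held 3 NRF1 matches, Sdhd 1 of NRF1 and 1 of GABPA, Cox6a1 2 of NRF1 and 1 of GABPA, and the Ndufc2 window held none of these letters. A match is a run of letters, and binding was not measured.

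The comparison of V5 with IgG asks which transcripts came down with the tagged protein above the mock. Of the 77 members, 5 were higher and 42 lower with V5, and 30 were not called. Among all tested genes 16.7% were higher and 40.4% lower. The members' median difference was -0.29, against -0.21 over all genes. The 5 higher members were Ndufc2, Sdhc, Sdhd, Uqcrfs1 and Cox7a2l. By complex, 1 was higher and 21 lower of 34 in complex I, 2 and 0 of 4 in complex II, 1 and 3 of 7 in complex III, 1 and 9 of 16 in complex IV and 0 and 9 of 16 in complex V. The medians of complexes I, III, IV and V lay between -0.31 and -0.25, and that of complex II at 0.05.

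With the GFP antibody the same 5 members were higher than in IgG, 62 were lower and 10 were not called. Among all genes 21.6% were higher and 52.1% lower. The members' median was -0.47, against -0.33 over all genes. Of complex I, 1 was higher and 27 lower, of complex II 2 and 2, of complex III 1 and 5, of complex IV 1 and 15 and of complex V 0 and 13. All 42 members that were lower with V5 were also lower with GFP, while 20 were lower with GFP and not called with V5. Without Cox4nb, Atp5s and Cox7a2l, 4 of 74 members were higher and 41 lower with V5, and 4 and 61 with GFP. Both comparisons use the same IgG arrays, so these overlaps are not independent.

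**Figure D1:**
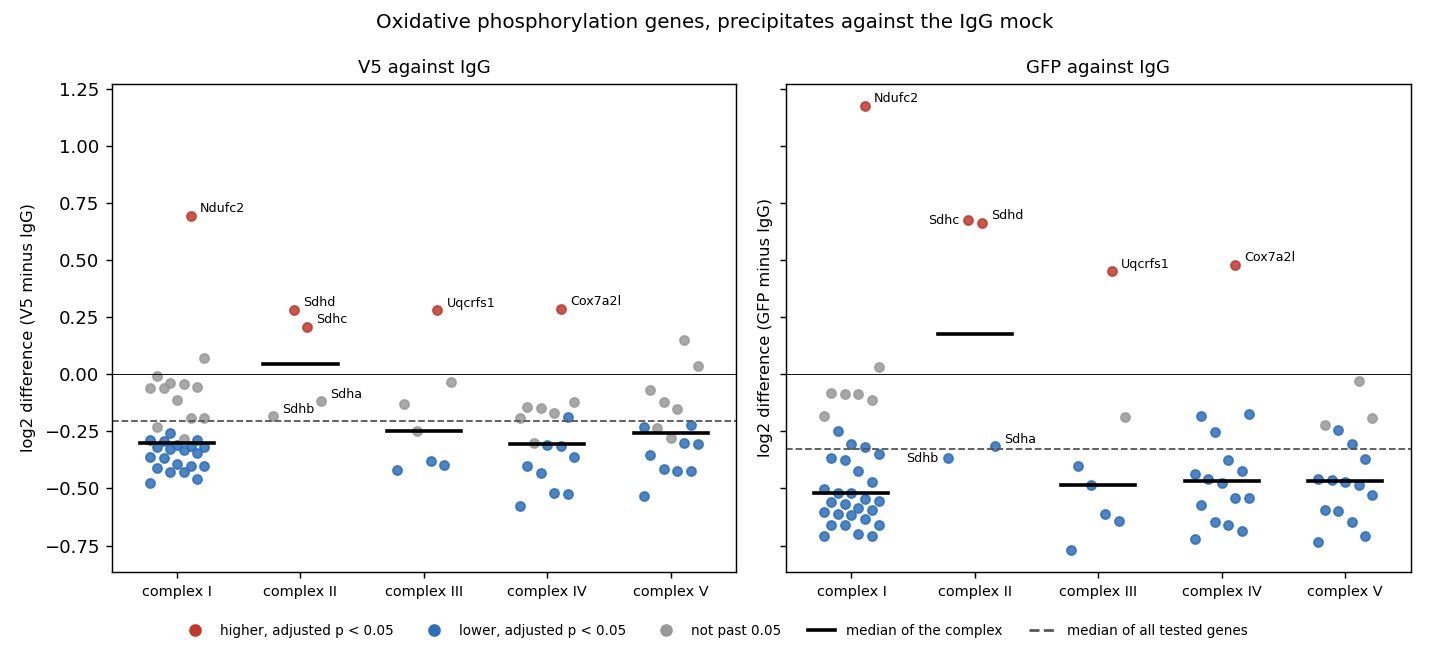
Log2 difference of each tested member (points) from the IgG mock, for V5 (left) and GFP (right), by complex on the x axis. Red and blue points passed 0.05 higher or lower in limma on the scale of the 75th percentile, black bars are the medians of the complexes and the dashed line is the median of all 17580 genes. Ndufc2, Sdhc, Sdhd, Uqcrfs1 and Cox7a2l stand above 0 in both panels, and complex II alone has a median above 0 on this scale. Within complex II, on this scale, Sdhc and Sdhd lie above 0 and Sdha and Sdhb below it in both panels, though with V5 neither Sdha nor Sdhb was called. On the spike-in scale the V5 medians of all 5 complexes lie above 0.

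These counts depended on arrays and on scaling. For V5 against IgG, the count of higher members was 1 without V5 replicate 1 (11% of all genes), 2 without V5 replicate 2 (13.1%) and 3 without IgG replicate 2 (14.3%). That of lower members was 21 without V5 replicate 2, against 24.9% of all genes, and 28 without V5 replicate 1, against 23.4%. Without both arrays whose descriptions conflict it was 0, against 3.37% of all genes, with 1 member higher and a median of -0.31. Here and below, member counts at an unadjusted p under 0.05 have no share of all genes beside them, as it was not computed. Scaled to the spike-in RNA controls, all genes shifted to a median of 0.17 for V5 and 0.14 for GFP against IgG, and the members to 0.09 and -0.0054. The members' median was below that of all genes on both scales, except that without IgG replicate 1 the V5 median was -0.21 over members and -0.23 over all genes. On the spike-in scale the 5 higher members lay between 0.59 and 1.07 with V5 and between 0.92 and 1.64 with GFP above IgG. On the spike-in scale this left 17 higher and 0 lower for V5 against IgG, beside 36.5% and 5.01% of all genes, and 14 higher and 3 lower for GFP, beside 38.3% and 12.5%. With the normexp background no member and 0% of all genes were called for V5 against IgG, with 1 member higher and 15 lower at an unadjusted p under 0.05, and for GFP 1 was higher and 6 lower, beside 8.53% and 9.78% of all genes.

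Complex II, succinate dehydrogenase, was split between its parts. Sdha, the flavoprotein that oxidises succinate, had levels of 1.68 and 1.83 with V5, 1.51 and 1.55 with GFP, 1.80 and 2.01 with IgG and 4.27 and 4.41 in input. Sdhb, the iron-sulfur subunit bound to it, had 6.32 and 5.86 with V5, 5.36 and 5.36 with GFP, 7.31 and 6.55 with IgG and 12.2 and 13.1 in input. Both genes lay highest on the input arrays and lowest on the GFP arrays, and V5 and IgG arrays of Sdha overlapped. Sdhc, which anchors the enzyme in the membrane, had 11.6 and 11.4 with V5, 16.0 and 15.9 with GFP, 9.70 and 10.3 with IgG and 8.66 and 9.31 in input. Sdhd, the other membrane anchor, had 24.4 and 21.5 with V5, 30.5 and 29.3 with GFP, 19.1 and 18.7 with IgG and 16.6 and 17.0 in input. Both anchors ran in the opposite order, with GFP arrays highest, V5 arrays next and no overlap of either with IgG or input.

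In limma, Sdhc was higher by 0.21 ± 0.069 with V5 than with IgG (adjusted p = 0.0404) and by 0.68 ± 0.069 with GFP than with IgG (adjusted p = 0.000386). Sdhd was higher by 0.28 ± 0.079 (adjusted p = 0.0235) and 0.66 ± 0.079 (adjusted p = 0.000583). Sdhb differed by -0.18 ± 0.084 with V5 from IgG, which did not pass (adjusted p = 0.102), and by -0.37 ± 0.084 with GFP (adjusted p = 0.00712). Sdha differed by -0.12 ± 0.081 (adjusted p = 0.248) and by -0.32 ± 0.081 (adjusted p = 0.0119). The V5 call of Sdhc ended without IgG replicate 1 (0.17), V5 replicate 1 (0.20) or V5 replicate 2 (0.22), and that of Sdhd without IgG replicate 2 (0.27) or V5 replicate 1 (0.19). Both V5 calls also ended with the normexp background (adjusted p = 0.884 and 0.767) and with no filter on dim probes (adjusted p = 0.0889 and 0.057). They ended with only the 2 groups fitted too (adjusted p = 0.129 and 0.0849), and that of Sdhc with the replicate block (adjusted p = 0.0549). The GFP call of Sdha ended without GFP replicate 1 (-0.30). Its second probe gave 0.03 for V5 and 0.14 for GFP against IgG. On the spike-in scale Sdha and Sdhb turned to 0.15 and 0.10 for GFP against IgG. For V5 against IgG the median of complex II was 0.43 on that scale, beside 0.17 over all genes. The second probe of Sdhc was not well above background on any array.

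**Figure D2:**
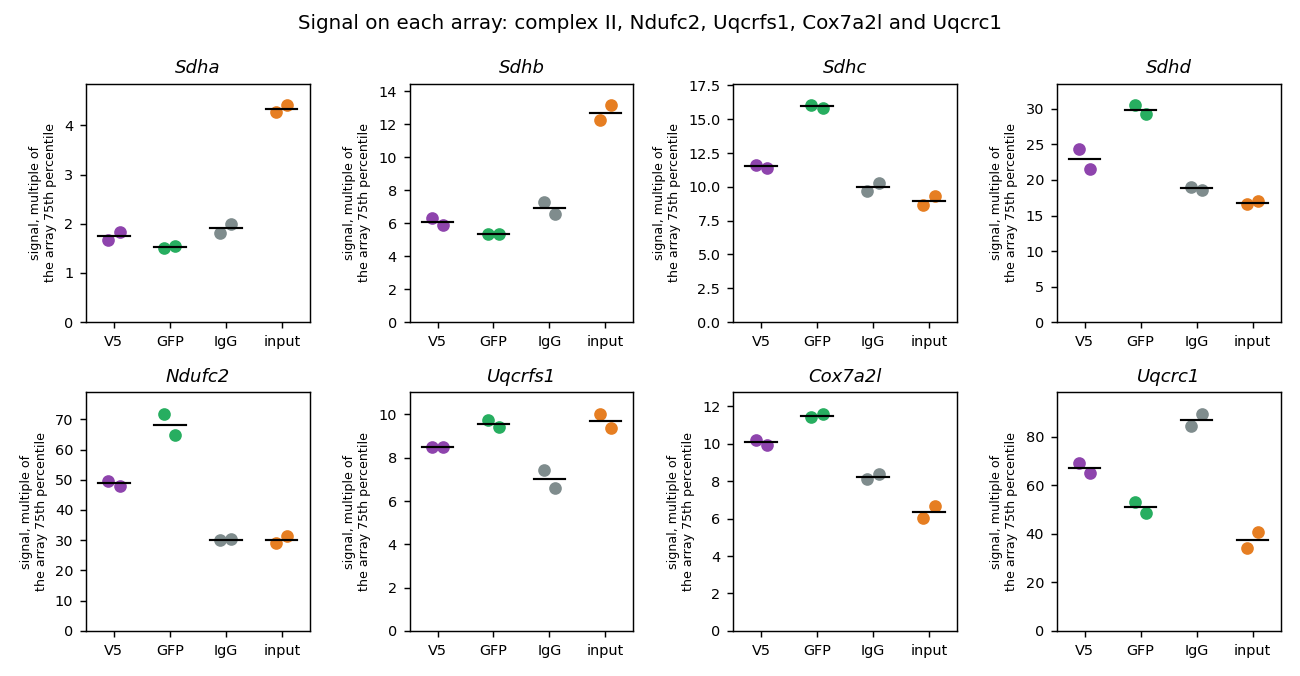
Level on each array (points, y axis as a multiple of the 75th percentile of the array, starting at 0) in the V5, GFP, IgG and input groups for 8 members, with a bar at the mean of the 2 arrays. Sdhc, Sdhd and Ndufc2 are highest on the GFP arrays and Sdha and Sdhb on the input arrays, while Uqcrc1 is highest on the IgG arrays.

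Ndufc2, an accessory subunit of the membrane arm of complex I, stood farthest above IgG of all members in both precipitates on this scale. Its levels were 49.6 and 48.0 with V5, 71.7 and 64.7 with GFP, 30.0 and 30.4 with IgG and 29.0 and 31.2 in input. V5 and GFP arrays lay above every IgG and input array, and IgG and input overlapped. The difference was 0.69 ± 0.079 for V5 against IgG (adjusted p = 0.00188) and 1.18 ± 0.079 for GFP against IgG (adjusted p = 0.000128). The V5 call of Ndufc2, read by 1 probe, ended with the normexp background (0.61, adjusted p = 0.214). Its neighbour by name, Ndufc1, differed from IgG by -0.19 ± 0.088 with V5 (adjusted p = 0.103), which passed without IgG replicate 2 (-0.29), and by -0.32 ± 0.088 with GFP (adjusted p = 0.0151), a call that ended without GFP replicate 2 (-0.27) and turned to 0.15 on the spike-in scale.

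Uqcrfs1, the Rieske iron-sulfur protein of complex III, had levels of 8.51 and 8.50 with V5, 9.73 and 9.42 with GFP, 7.45 and 6.59 with IgG and 10.02 and 9.39 in input. It was higher with V5 than with IgG by 0.28 ± 0.081 (adjusted p = 0.0264) and with GFP by 0.45 ± 0.081 (adjusted p = 0.00268), while GFP and input overlapped. Cox7a2l, the supercomplex factor, had 10.2 and 9.93 with V5, 11.4 and 11.6 with GFP, 8.11 and 8.39 with IgG and 6.06 and 6.67 in input. It was higher by 0.29 ± 0.072 (adjusted p = 0.0161) and 0.48 ± 0.072 (adjusted p = 0.00129) with V5 and GFP than with IgG, and its groups did not overlap. The V5 call of Uqcrfs1 ended without IgG replicate 2 (0.19), V5 replicate 1 (0.28) or V5 replicate 2 (0.28), and that of Cox7a2l without V5 replicate 1 (0.27) or V5 replicate 2 (0.31). Both V5 calls also ended with the normexp background (adjusted p = 0.729 and 0.731) and with only the 2 groups fitted (adjusted p = 0.0849 and 0.0585). That of Uqcrfs1 ended with no filter on dim probes as well (adjusted p = 0.0626).

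In complex I, 7 of 12 Ndufa, 7 of 10 Ndufb and 6 of 8 Ndufs members were lower with V5 than with IgG, and 10, 8 and 7 with GFP. The share of all genes lower than IgG was 40.4% with V5 and 52.1% with GFP. Of the core subunits that carry flavin or iron-sulfur clusters, Ndufv1, which binds NADH, had levels of 32.7 and 31.2 with V5, 25.6 and 26.0 with GFP, 41.4 and 43.0 with IgG and 38.8 and 40.7 in input. Its difference from IgG was -0.40 ± 0.066 with V5 (adjusted p = 0.00485) and -0.71 ± 0.066 with GFP (adjusted p = 0.0003). Ndufs3 of the peripheral arm differed from IgG by -0.46 ± 0.083 with V5 (adjusted p = 0.00608) and -0.63 ± 0.083 with GFP (adjusted p = 0.000801). Ndufs7, which holds the last cluster before ubiquinone, differed by -0.41 ± 0.078 (adjusted p = 0.00698) and -0.66 ± 0.078 (adjusted p = 0.000569). Ndufb7, an accessory subunit of the membrane arm, differed by -0.48 ± 0.069 with V5 (adjusted p = 0.00352) and -0.71 ± 0.069 with GFP (adjusted p = 0.000347). Ndufa13, also known as Grim19, differed by -0.43 ± 0.070 (adjusted p = 0.00483) and -0.70 ± 0.070 (adjusted p = 0.000371). On the spike-in scale the V5 calls of all these members ended. The V5 differences were then -0.021 for Ndufv1, -0.081 for Ndufs3, -0.032 for Ndufs7, -0.096 for Ndufb7 and -0.050 for Ndufa13. Without both arrays whose descriptions conflict these calls ended as well, at -0.44, -0.41, -0.47, -0.50 and -0.46 in the same order. With GFP, Ndufs8, an iron-sulfur subunit of the peripheral arm, differed from IgG by -0.38 ± 0.092 (adjusted p = 0.00961), which turned to 0.0914 on the spike-in scale.

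The core subunits Ndufs1 and Ndufv2 were not called against IgG. Ndufs1, the largest iron-sulfur subunit, had levels of 8.69 and 8.68 with V5, 8.48 and 8.03 with GFP, 8.93 and 8.54 with IgG and 19.1 and 19.9 in input. Its differences from IgG were -0.01 ± 0.067 with V5 (adjusted p = 0.918) and -0.08 ± 0.067 with GFP (adjusted p = 0.297). On the spike-in scale it passed as higher with both, by 0.37 with V5 (adjusted p = 0.0128) and 0.39 with GFP (adjusted p = 0.00882). IgG lay below input by -1.16 ± 0.067 (adjusted p = 1.8e-05). Ndufv2 had 4.12 and 4.16 with V5, 3.72 and 3.72 with GFP, 4.43 and 3.51 with IgG and 8.77 and 9.03 in input, and its V5 and GFP arrays fell between the 2 IgG arrays. The 10 members called in neither comparison with IgG were Ndufa4, Ndufa6, Ndufb5, Ndufb6, Ndufs1, Ndufv2, Uqcrb, Atp5f1, Atp5g3 and Atp5s.

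Probes of 1 gene did not always move alike. Of the 20 members with several kept probes, 4 had probes of opposite sign in V5 against IgG and 7 in GFP against IgG. For Ndufa3, another accessory subunit of complex I, the probe that stands for the gene gave -0.58 ± 0.082 (adjusted p = 0.00112, limma over all probes) for GFP against IgG and the other 0.53 ± 0.081 (adjusted p = 0.00156). The 3 probes of Atp5f1, the peripheral stalk subunit now named Atp5pb, gave -1.33, -1.04 and 1.02 for IgG against input. The 2 probes of Uqcrc1 moved together, by -0.77 and -0.79 for GFP against IgG.

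In complex III, Uqcrc1, a core subunit related to mitochondrial processing peptidases, had levels of 68.9 and 64.8 with V5, 53.2 and 48.7 with GFP, 84.5 and 89.3 with IgG and 34.1 and 40.6 in input. The 4 groups did not overlap, and IgG was highest. Uqcrc1 was lower with GFP than with IgG by -0.77 ± 0.10 (adjusted p = 0.000881), and with V5 by -0.38 ± 0.10 (adjusted p = 0.0219). The V5 call ended without IgG replicate 2 (-0.34), V5 replicate 1 (-0.42) or V5 replicate 2 (-0.33), and on the spike-in scale the V5 difference was 0.0023. That call also ended with no filter on dim probes (adjusted p = 0.0534) and with the normexp background (-0.47, adjusted p = 0.339). Against input Uqcrc1 was higher in each precipitate, by 0.85 ± 0.10 with V5 (adjusted p = 0.00041), 0.45 ± 0.10 with GFP (adjusted p = 0.00679) and 1.22 ± 0.10 with IgG (adjusted p = 6.7e-05). The GFP call against input ended on the spike-in scale (0.14, adjusted p = 0.318) and with the normexp background (0.26, adjusted p = 0.491), and the V5 call with the normexp background (0.64, adjusted p = 0.107).

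In complex V, all 13 called members were lower with GFP than with IgG. Atp5g1, one of 3 genes for the same mature c-subunit of the rotor, had levels of 14.6 and 13.7 with V5, 12.7 and 11.9 with GFP, 19.6 and 21.3 with IgG and 21.6 and 23.4 in input. It differed from IgG by -0.53 ± 0.083 with V5 (adjusted p = 0.00417) and -0.73 ± 0.083 with GFP (adjusted p = 0.000492). Its V5 call ended on the spike-in scale (-0.15, adjusted p = 0.223). Atp5g2 had 47.1 and 39.7 with V5, 39.0 and 37.6 with GFP, 56.4 and 59.4 with IgG and 39.8 and 45.9 in input, with a GFP difference from IgG of -0.60 ± 0.11 (adjusted p = 0.00295). Atp5g3 had 40.9 and 48.5 with V5, 42.2 and 44.4 with GFP, 53.3 and 46.0 with IgG and 62.5 and 57.1 in input, and differed from IgG by -0.15 ± 0.12 with V5 (adjusted p = 0.29) and -0.19 ± 0.12 with GFP (adjusted p = 0.169). Atp5a1, the alpha subunit, differed from IgG with GFP by -0.24 ± 0.078 (adjusted p = 0.0277), a call that ended without IgG replicate 2 (-0.20) or GFP replicate 2 (-0.19) and turned to 0.22 on the spike-in scale. The second kept probe of Atp5a1 gave 0.12, and the mean of both probes -0.06 (adjusted p = 0.49). Atp5b, the catalytic beta subunit, differed by -0.46 ± 0.064 with GFP from IgG (adjusted p = 0.000995), and on the spike-in scale by 0.0068.

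Complex IV holds the most isoform pairs. Cox6b2, a testis isoform in adult mammals, had levels of 9.43 and 8.67 with V5, 9.20 and 8.61 with GFP, 13.7 and 12.3 with IgG and 7.52 and 8.06 in input. Its widely expressed partner Cox6b1 had 1.08 and 1.06 with V5, 0.977 and 1.07 with GFP, 1.41 and 1.33 with IgG and 1.56 and 1.68 in input. Both were lower with V5 than with IgG, Cox6b2 by -0.52 ± 0.088 (adjusted p = 0.00521) and Cox6b1 by -0.36 ± 0.078 (adjusted p = 0.0102), but against input IgG was higher for Cox6b2 (0.74 ± 0.088, adjusted p = 0.000313) and lower for Cox6b1 (-0.24 ± 0.078, adjusted p = 0.0293). The call of Cox6b1 in IgG against input ended without input replicate 2 (-0.18) or IgG replicate 2 (-0.20), and the spike-in scale turned Cox6b2 there to -0.05 and Cox6b1 for V5 against IgG to 0.02. On that scale the call of Cox6b2 for V5 against IgG ended too (-0.14, adjusted p = 0.312).

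Cox8c, a testis isoform, had 26.2 and 28.2 with V5, 24.6 and 25.1 with GFP, 31.1 and 28.2 with IgG and 23.3 and 22.6 in input. Cox8a, the widely expressed isoform, had 50.2 and 48.5 with V5, 43.0 and 43.0 with GFP, 65.2 and 77.0 with IgG and 34.2 and 37.4 in input. Cox8a differed from IgG by -0.52 ± 0.097 with V5 (adjusted p = 0.00658) and -0.72 ± 0.097 with GFP (adjusted p = 0.000856). Its V5 call ended on the spike-in scale (-0.14, adjusted p = 0.291). On the scale of the 75th percentile, Cox8a and Cox8c both lay highest on IgG arrays in the mean. For Cox8c the V5 arrays overlapped IgG (-0.12 ± 0.078, adjusted p = 0.21). Cox8b was not well above background on both arrays of any group and Cox4i2 was so on 1 IgG array alone, so neither was tested. Cox6a2, a muscle isoform, lay at 0.0987 to 0.180 times the 75th percentile on all 8 arrays. Its V5 difference from IgG was -0.58 ± 0.19 (adjusted p = 0.0397). The call ended with quantile normalization (-0.41, adjusted p = 0.121) and the normexp background (-0.20, adjusted p = 0.9999), and without IgG replicate 2 (-0.39), V5 replicate 1 (-0.60) or V5 replicate 2 (-0.55). It also ended on the spike-in scale (-0.20, adjusted p = 0.413), with no filter on dim probes (adjusted p = 0.0865) and with the replicate block (adjusted p = 0.0606).

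Among the other isoforms, Cox7a1, the heart and muscle form, had levels of 13.5 and 12.2 with V5, 10.8 and 10.2 with GFP, 17.7 and 16.2 with IgG and 15.3 and 15.9 in input. It differed from IgG with GFP by -0.69 ± 0.083 (adjusted p = 0.000621). Its widely expressed partner Cox7a2 had 19.2 and 20.1 with V5, 16.3 and 16.0 with GFP, 25.8 and 19.5 with IgG and 17.9 and 18.0 in input, with a GFP difference from IgG of -0.48 ± 0.13 (adjusted p = 0.0143) that was not called without GFP replicate 2 (-0.46). V5 and IgG arrays overlapped for Cox7a2 and not for Cox7a1. Cox6a1, the widely expressed partner of Cox6a2, differed from IgG with GFP by -0.66 ± 0.072 (adjusted p = 0.000449), Cox4i1 by -0.54 ± 0.12 (adjusted p = 0.00599) and Cox7b by -0.44 ± 0.11 (adjusted p = 0.0122).

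**Figure D3:**
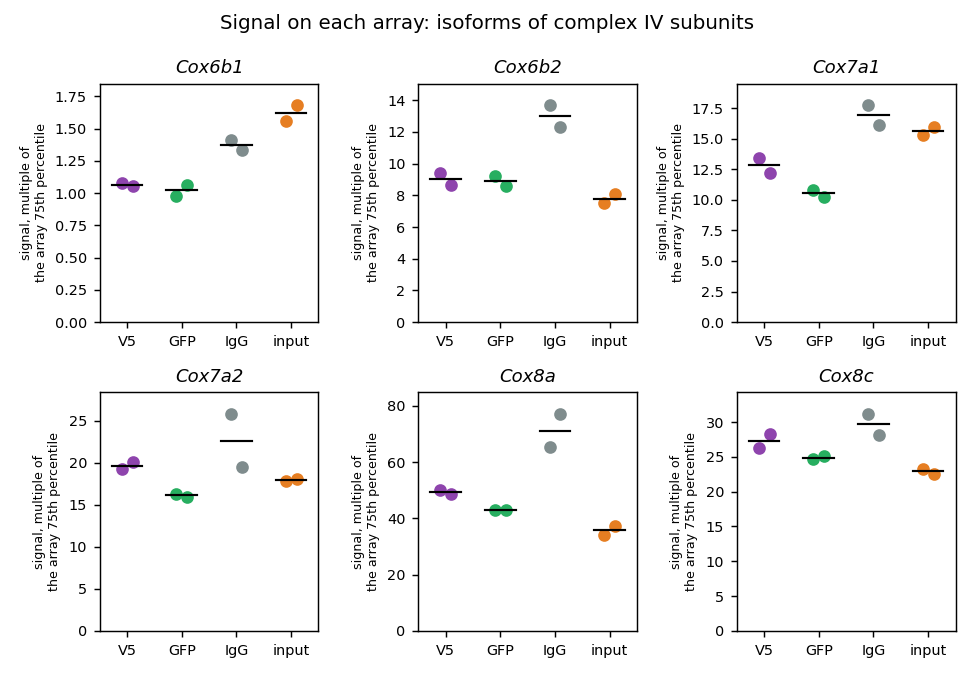
Level on each array (points, y axis as a multiple of the 75th percentile of the array, starting at 0) in the V5, GFP, IgG and input groups for 6 isoform genes of complex IV, with a bar at the mean of the 2 arrays. On this scale the means of Cox6b2, Cox8a and Cox8c are lowest in input and highest in IgG, and Cox6b1 is highest in input.

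IgG against input compares the mock with total RNA. Of the 77 members 15 were higher and 28 lower in IgG than in input. Among all genes 43.9% were higher and 29.3% lower. The members' median was -0.06 against 0.22 over all genes. By complex, 4 were higher and 12 lower in complex I, 0 and 2 in complex II, 3 and 3 in complex III, 7 and 4 in complex IV and 1 and 7 in complex V, and the median of complex IV, 0.24, was above that of the others, which lay between -0.36 and -0.06. With quantile normalization 8 were higher and 45 lower, beside 44.1% and 31.3% of all genes, and on the spike-in scale 1 and 74, beside 13.7% and 62.0% of all genes, whose median was then -0.57 and that of the members -0.85. On the spike-in scale the medians of complexes I, II, III and V lay between -1.15 and -0.85 and that of complex IV at -0.54.

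**Figure D4:**
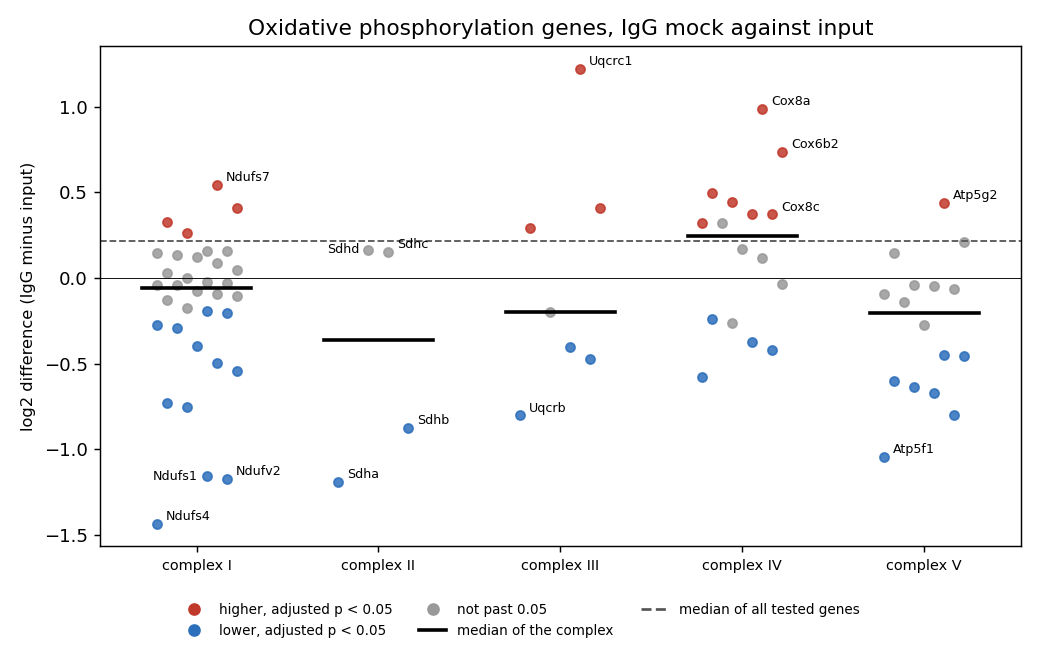
Log2 difference of each tested member (points) between the IgG mock and input, by complex on the x axis. Colours mark calls at 0.05 in limma on the scale of the 75th percentile, black bars the medians of the complexes and the dashed line the median of all 17580 genes. Uqcrc1 is the highest member at 1.22 and Ndufs4 the lowest at -1.43, and on the spike-in scale the medians of all 5 complexes lie below 0.

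Within each complex members ran far apart in this comparison. Ndufs4, an accessory subunit beside the electron entry site of complex I, had levels of 9.02 and 7.78 with IgG against 22.1 and 23.2 in input (-1.43 ± 0.087, adjusted p = 2.07e-05). Ndufs7 of the same complex had 30.6 and 32.8 with IgG against 20.9 and 22.6 in input (0.55 ± 0.078, adjusted p = 0.000731), and turned to -0.24 on the spike-in scale. Sdha was lower with IgG by -1.19 ± 0.081 (adjusted p = 2.99e-05) and Sdhb by -0.87 ± 0.084 (adjusted p = 0.000115), whereas Sdhc (0.15 ± 0.069, adjusted p = 0.0872) and Sdhd (0.17 ± 0.079, adjusted p = 0.101) did not pass, and lay at -0.63 and -0.62 on the spike-in scale. Uqcrb of complex III was lower by -0.80 ± 0.13 (adjusted p = 0.00157). Cox8a was higher by 0.99 ± 0.097 (adjusted p = 0.000124), and by 0.20 on the spike-in scale, where the call ended (adjusted p = 0.0977). Atp5c1, the central stalk subunit gamma of complex V, had 54.9 and 52.4 with IgG against 93.8 and 92.7 in input (-0.80 ± 0.071, adjusted p = 8.2e-05).

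Against input directly, 8 members were higher and 52 lower with V5, and 7 and 57 with GFP. Among all genes 37.7% were higher and 35.6% lower with V5, and 36.2% and 39.1% with GFP. The members' medians were -0.40 with V5 and -0.57 with GFP, against 0.01 and -0.06 over all genes. In the authors' deposited table of group means, where 61 members had a single entry, their medians were -0.10 with V5 and -0.29 with GFP, against -0.40 and -0.57 for the same 61 in limma. Complex V lay lowest, with medians of -0.51 with V5 and -0.79 with GFP and 14 of 16 members lower with each antibody. Ndufs4 was lower by -1.48 ± 0.087 with V5 (adjusted p = 2.35e-05) and -1.80 ± 0.087 with GFP (adjusted p = 9.41e-06). Ndufc2 was higher by 0.70 ± 0.079 (adjusted p = 0.000277) and 1.18 ± 0.079 (adjusted p = 2.75e-05). Without the arrays whose descriptions conflict, input replicate 2 and V5 replicate 1, 3 were higher and 31 lower with V5, beside 26.9% and 24.0% of all genes.

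**Figure D5:**
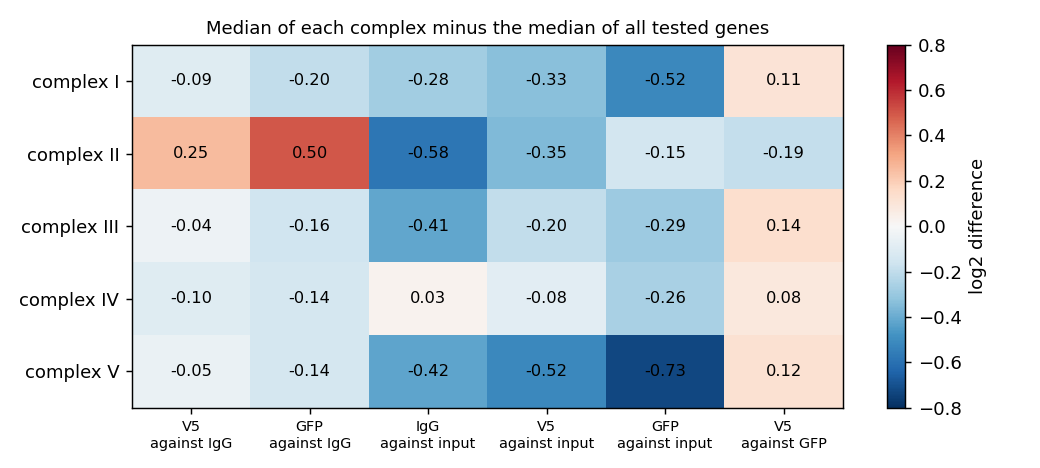
Median log2 difference of the tested members of each complex (rows) minus the median of all 17580 genes, in 6 comparisons (columns), with the number in each cell. The comparisons share arrays and are not independent. The median of complex II lies above that of all genes against IgG, by 0.25 with V5 and 0.50 with GFP. Its 4 members were split, with 2 higher and 2 lower than IgG with GFP, and 2 higher and 0 lower with V5. The median of complex V lies farthest below that of all genes against input, by -0.52 with V5 and -0.73 with GFP.

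V5 against GFP, on 1 slide, compares both antibodies against the same fusion. Here 3 members were higher and 3 lower with V5, against 6.80% and 7.19% of all genes, and 71 were not called. With quantile normalization 7 were higher and 3 lower, beside 8.41% and 8.48% of all genes, and on the spike-in scale 0 and 3, beside 1.37% and 9.48%, with 5 higher at an unadjusted p under 0.05. Ndufa9, an accessory subunit of complex I, had 25.8 and 24.9 with V5 against 20.3 and 19.7 with GFP (0.34 ± 0.080, adjusted p = 0.0424). Ndufv1 (0.31 ± 0.066, adjusted p = 0.0372) and Ndufb11 (0.30 ± 0.064, adjusted p = 0.0369) were higher with V5 as well. Ndufc2 (-0.48 ± 0.079, adjusted p = 0.0289), Sdhc (-0.47 ± 0.069, adjusted p = 0.0283) and Sdhd (-0.38 ± 0.079, adjusted p = 0.0352) were lower with V5. Each of these 6 calls ended when any 1 V5 or GFP array was left out. The differences then lay between 0.32 and 0.36 for Ndufa9, 0.27 and 0.34 for Ndufv1, 0.27 and 0.33 for Ndufb11, -0.56 and -0.41 for Ndufc2, -0.48 and -0.45 for Sdhc, and -0.47 and -0.29 for Sdhd.

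Further genes of the pathway were taken from lists, and those named were chosen after their values were seen. Of 12 subunits and carriers that the name rule leaves out, 1 was higher and 6 lower with V5 than with IgG, and 2 and 8 with GFP. Over all tested genes the shares were 16.7% higher and 40.4% lower with V5, and 21.6% and 52.1% with GFP. Cyct, the testis cytochrome c, was higher by 0.35 ± 0.12 with V5 (adjusted p = 0.0477) and 0.47 ± 0.12 with GFP (adjusted p = 0.0126) than with IgG. Slc25a31, the germ cell carrier that exchanges ADP for ATP, had a GFP difference from IgG of 0.39 ± 0.12 (adjusted p = 0.024), while Slc25a5, a carrier of the same family in most tissues, differed by -0.74 ± 0.063 (adjusted p = 0.000238). The V5 call of Cyct ended without IgG replicate 2 (0.17), V5 replicate 1 (0.34) or V5 replicate 2 (0.36), and its GFP call without GFP replicate 1 (0.41). That V5 call also ended with the normexp background (adjusted p = 0.593), no filter on dim probes (adjusted p = 0.1) and only the 2 groups fitted (adjusted p = 0.103). The GFP call of Slc25a31 ended without IgG replicate 2 (0.23), GFP replicate 1 (0.38) or GFP replicate 2 (0.41). Slc25a31 missed the V5 threshold (0.28 ± 0.12, adjusted p = 0.0898) and passed it without IgG replicate 1 (0.45).

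Of 19 tested assembly factors, 3 were higher and 4 lower with V5 than with IgG, and 4 and 11 with GFP. For this list and those that follow, the shares of all genes were 16.7% higher and 40.4% lower with V5, and 21.6% and 52.1% with GFP. Ttc19, a factor of complex III, was higher by 0.80 ± 0.068 (adjusted p = 0.00102) and 1.32 ± 0.068 (adjusted p = 8.21e-05), and Cox15, of heme a synthesis for complex IV, by 0.40 ± 0.065 (adjusted p = 0.00463) and 0.75 ± 0.065 (adjusted p = 0.000246). Their V5 calls ended with the normexp background, at 0.72 for Ttc19 (adjusted p = 0.153) and 0.35 for Cox15 (adjusted p = 0.197). That of Cox15 also ended without the arrays whose descriptions conflict (0.44). Of 13 regulators of the transcription of mitochondrial and oxidative phosphorylation genes, 4 were higher with each antibody, and 4 were lower with V5 and 6 with GFP. Gabpa, the factor whose motif is given above, was higher by 1.06 ± 0.15 (adjusted p = 0.00317) and 1.503 ± 0.15 (adjusted p = 0.000347), and Tfb2m, a mitochondrial transcription factor, by 0.91 ± 0.10 (adjusted p = 0.00181) and 1.17 ± 0.10 (adjusted p = 0.000247). The V5 calls of both ended with the normexp background (adjusted p = 0.161 and 0.153), and that of Gabpa without the arrays whose descriptions conflict (1.06). Against input, Gabpa was lower with V5 (-0.77 ± 0.15, adjusted p = 0.00313) and IgG (-1.83 ± 0.15, adjusted p = 5.31e-05), and not called with GFP (-0.33 ± 0.15, adjusted p = 0.0794). Nrf1 differed from IgG by -0.04 ± 0.078 with V5 (adjusted p = 0.65) and 0.00 ± 0.078 with GFP (adjusted p = 0.983). On the spike-in scale it passed as higher than IgG by 0.34 with V5 (adjusted p = 0.021) and 0.47 with GFP (adjusted p = 0.0042). Of 13 genes of the tricarboxylic acid cycle outside complex II, 2 were higher with each antibody and 7 were lower with V5 and 10 with GFP. The higher ones were Suclg2, the GDP-forming subunit of succinyl-CoA ligase, and Idh3a, of the NAD-linked isocitrate dehydrogenase, which was higher with GFP by 0.41 ± 0.087 (adjusted p = 0.00542).

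Markers of cell types moved with these groups. For V5 against IgG 16.7% of all genes were higher and 40.4% lower, and for GFP against IgG 21.6% and 52.1%. Of 8 germ cell markers, 6 were higher with V5 and 6 higher and 1 lower with GFP than with IgG, and their summed level was 113 to 115 with V5, 129 to 143 with GFP, 73.2 to 77.4 with IgG and 161 to 163 in input. This list holds Dazl itself, the transcript of the protein whose fusion was precipitated, which was higher than IgG with both antibodies. Of 10 Sertoli cell markers, 9 were lower with V5 and 10 with GFP than with IgG, with sums of 370 to 388, 308 to 318, 484 to 509 and 382 to 391 in V5, GFP, IgG and input. Markers of Leydig cells (5 of 5) and peritubular myoid cells (5 of 5) were lower with both antibodies than with IgG, as were 4 and 5 of 6 leukocyte, 5 and 6 of 6 endothelial, 2 and 3 of 3 erythroid and 4 and 4 of 4 muscle markers with V5 and GFP. Their part in the differences of the members was not tested.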

How the data were processed

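RNA of 8 arrays, 2 per group, was measured. Per the file headers, the deposited intensity values are processed signals of Agilent Feature Extraction 9.1.3.1, background-subtracted and detrended within an array. The deposited series table holds the authors' group means of signal, scaled to median values with GeneSifter per the file headers, and served as an alternative; 6 of its columns were not used. Processed signals were put on the log2 scale minus the 75th percentile of each array. Control and outlier-marked spots were left out, spots of a probe were averaged, and a probe was kept if some group had it well above background on its 2 arrays. The kept probe with the highest mean stood for its gene. All 17580 genes were fitted with limma 3.58.1 in R 4.3.3 over the 4 groups (4 residual and 2.41 prior degrees of freedom), with Benjamini-Hochberg adjustment, and the fit was tested on simulated data.

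The members and lists were chosen with earlier results of these data known. Genes named were, per comparison and complex, from the 2 highest and 2 lowest members, those called against the majority, the Sdh genes, isoform families, subunits that carry cofactors or catalysis, and members whose probes disagree; a part of these is printed. Ndufa5 was not tested because its spot was marked as an outlier on 1 input array. All 80 members matched RefSeq (78 by accession, 2 by symbol). Alternatives were quantile and spike-in scaling, normexp with offset 50, other filters and probe rules, a replicate block, and leaving out arrays. The number of arrays limits the precision.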

Additional observations from a re-analysis of the deposited data

Results flagged for a closer look

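For 6 members the difference from IgG was called as unlike between the antibodies, by the limma test of V5 against GFP. Of the 77 tested members 3 were higher and 3 lower with V5, beside 6.80% and 7.19% of all genes. As given above, each of these calls ended when any 1 V5 or GFP array was left out. Ndufc2 (-0.481), Sdhc (-0.468) and Sdhd (-0.383) were lower with V5, and Ndufa9 (0.341), Ndufv1 (0.307) and Ndufb11 (0.301) were higher with V5. Ndufv2 had V5 arrays on the upper and GFP arrays on the lower side of the IgG mean, with 0.154 for V5 minus GFP, which did not pass in limma (adjusted p = 0.338). Its differences from IgG did not pass either, at 0.0693 with V5 (adjusted p = 0.612) and -0.0845 with GFP (adjusted p = 0.513).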

How the results depend on the processing

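For the 95 gene values named, 1387 alternatives were run. Of these, 209 lost the call, 4 gained it and 16 turned sign with a call in the main fit, the alternative or both. The other 1158 kept their call and its direction, or were called in neither fit. A value called in neither fit was counted there even where its sign turned, so such turns are not listed. All 16 that turned with a call did so on the spike-in scale: for V5 against IgG Ndufs1 (0.37), Uqcrc1 (0.0023), Cox6b1 (0.018) and Nrf1 (0.34), for GFP against IgG Sdha (0.15), Sdhb (0.10), Ndufc1 (0.15), Ndufs1 (0.39), Ndufs8 (0.0914), Atp5a1 (0.22), Atp5b (0.0068) and Cox7b (0.031), and for IgG against input Ndufs7 (-0.24), Sdhc (-0.63), Sdhd (-0.62) and Cox6b2 (-0.0473). In the counts that follow, the share of all genes called the same way stands in brackets, and unadjusted counts have no such share. That scaling gave 17 higher [36.5%] and 0 lower [5.01%] members for V5 against IgG (median 0.0937), 14 [38.3%] and 3 [12.5%] for GFP against IgG (-0.0054), 1 [13.7%] and 74 [62.0%] for IgG against input (-0.85), 3 higher [20.6%] for V5 against input (-0.80), 4 higher [23.5%] for GFP against input (-0.89) and 0 higher [1.37%] for V5 against GFP. Quantile normalization gave 25 lower [30.9%] for V5 against IgG, 8 higher [44.1%] and 45 lower [31.3%] for IgG against input (-0.29), a median of -0.65 for GFP against input and 7 higher [8.41%] for V5 against GFP. The normexp background gave 0 higher and 0 lower for V5 against IgG [0% each] (1 and 15 at an unadjusted p under 0.05), 1 [8.53%] and 6 [9.78%] for GFP against IgG, 2 [22.0%] and 16 [13.7%] for IgG against input, 0 [16.9%] and 29 [13.0%] for V5 against input (-0.54), 3 higher [18.2%] for GFP against input (-0.72), and 0 and 0 for V5 against GFP [0% each] (0 and 2 unadjusted). With no filter on dim probes 2 were higher [8.74%] for V5 against IgG, and 0 and 0 for V5 against GFP [0.00716% each] (28 and 3 unadjusted). With probes above background on all 8 arrays 16 were higher [13.6%] for V5 against GFP. Fitting only the groups compared gave 1 [12.9%] and 25 [28.9%] for V5 against IgG, and 0 [0.0114%] and 0 [0%] for V5 against GFP (39 and 5 unadjusted). The authors' deposited table, over 61 members with a single entry, gave medians of -0.10 for V5 against input and -0.29 for GFP against input. Without input replicate 2 and V5 replicate 1 there were 1 [3.74%] and 0 [3.37%] for V5 against IgG, 3 [26.9%] and 31 [24.0%] for V5 against input, and 0 [0.0171%] and 0 [0.00569%] for V5 against GFP (4 and 3 unadjusted). The cause was not tested.

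Leaving out 1 array gave 1 to 5 higher and 21 to 42 lower for V5 against IgG (-0.33 to -0.21), 5 and 50 to 62 for GFP against IgG (-0.56 to -0.40), 11 to 16 and 22 to 29 for IgG against input (-0.11 to -0.04), 7 to 8 and 40 to 50 for V5 against input (-0.40 to -0.33), 6 and 52 to 55 for GFP against input (-0.63 to -0.55), and 0 and 0 for V5 against GFP (0.16 to 0.23), where 10 to 31 were higher unadjusted. The medians of all genes then ran from -0.23 to -0.18 for V5 against IgG, -0.34 to -0.30 for GFP against IgG, 0.17 to 0.26 for IgG against input, -0.0034 to 0.02 for V5 against input, -0.07 to -0.04 for GFP against input and 0.08 to 0.10 for V5 against GFP. The shares of all genes for V5 against IgG then lay between 11% and 19.0% higher and between 23.4% and 41.5% lower. The lone array left is assumed to vary like the other groups. With all 8 arrays, the shares of all genes higher and lower were 21.6% and 52.1% for GFP against IgG. They were 43.9% and 29.3% for IgG against input, and 37.7% and 35.6% for V5 against input. For GFP against input they were 36.2% and 39.1%, and for V5 against GFP 6.80% and 7.19%.

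Same-numbered arrays correlated between -0.075 and 0.107 in their deviations and share a number only. The replicate block gave 4 and 39 for V5 against IgG, 5 and 60 for GFP against IgG, and 15 and 26 for IgG against input. It gave 8 and 50 for V5 against input and 7 and 56 for GFP against input. For V5 against GFP it gave 0 [1.43%] and 2 [3.09%] (32 and 4 unadjusted). Without the block, the shares of all genes for V5 against IgG were 16.7% higher and 40.4% lower. Those of the other comparisons are given above with all 8 arrays.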
